A study of Bos taurus with 24 samples.

Results

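The core circadian clock genes PER1, PER2, PER3, CRY1, CRY2, CLOCK, ARNTL, NR1D1, NR1D2 and DBP were followed in bovine dermal fibroblasts by hour after lipopolysaccharide (LPS) and by breed. They were taken by gene symbol from the 27550 rows of the expression tables that carry one (of 59846 rows in all). Each of the 10 symbols stood on 1 row, and all 10 passed the filter on low counts in every comparison. The clock is a loop of transcription and repression. CLOCK and ARNTL (also called BMAL1) form a dimer that activates the period (PER) and cryptochrome (CRY) genes, the nuclear receptor genes NR1D1 and NR1D2 (REV-ERB alpha and beta) and the output gene DBP. PER and CRY proteins hold the dimer back, while the NR1D receptors repress ARNTL itself. Cultured fibroblasts carry this loop, and serum, glucocorticoids and temperature can set its phase.

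The fibroblasts, which make the connective tissue of skin, came from 4 Angus (beef) and 4 Holstein (dairy) heifers of one age, with 1 culture per animal. RNA was collected from every culture before LPS (0 h) and at 2 h and 8 h after 100 ng/ml of LPS, an outer-membrane molecule of Gram-negative bacteria, which gave 6 groups of 4 samples. The cultures were third-passage cells revived from the freezer and chosen at random from a larger set. Lysates of duplicate wells were pooled, so each sample stands for 1 animal at 1 hour. There was no culture without LPS at 2 h or 8 h, so the effect of LPS and that of time in culture, on which clock genes also depend, cannot be told apart. The time of day of the collections, and whether the serum-containing medium was renewed when LPS was added, are not given in the sources used here. Bulk RNA does not separate a change in every cell from a change in the share or phase of cells.

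Total counts were 51014538 to 104406293 per sample, and levels are given in CPM, counts relative to library size, after TMM scaling (trimmed mean of M-values). A count of 3, taken as the smallest level the depth can show, was 0.029 to 0.059 CPM, and the lowest count of any clock gene in any sample was 73 (DBP). All 9 fibroblast markers averaged over 1 CPM in every group, and their sum was 37830.73 to 124631.11 CPM over the samples. Markers of keratinocytes, endothelium, leukocytes and melanocytes each summed to 13.73 CPM at most in any sample. Those of keratinocytes summed to 0.43 to 0.74 CPM in Angus and 0.68 to 13.73 in Holstein, where KRT5 averaged over 1 CPM. The part of this in the breed differences was not tested. Markers of smooth muscle and pericytes (4 markers, none at 0) reached 207.59 to 444.55 CPM. The sum of these 4 moved with the hour in Angus. It was 207.59 to 293.02 CPM at 0 h, 362.26 to 444.55 at 2 h without overlap, and 242.75 to 331.3 at 8 h. In Holstein the sum overlapped between all hours (219.62 to 321.97, 267.28 to 400 and 229.36 to 341.16). Not every marker rose with the sum in Angus, since RGS5 averaged over 1 CPM at 0 h and 8 h but not at 2 h. DES did not average over 1 CPM in any group. The part of these markers in the changes of the clock genes was not tested. In 4 samples (at 0 h, Holstein animals 2 and 4 with Angus animal 4, and at 2 h, Angus animal 3) reads of COL1A1 had been counted differently, since each count stood for 66.2 to 67.1 bases of coverage and not for 111.8 to 119 as in the other 20. For the clock genes this ratio differed little between these samples and the rest (NR1D1, 74.7 to 82.3 against 74.2 to 93; ARNTL, 64.9 to 66.3 against 63.6 to 68.2). These 4 samples also had the highest shares of matched reads, 96.23% to 96.54% against 92.88% to 95.25% in the other 20. They thus differed in more than COL1A1, and the cause was not tested. Because 3 of the 4 are 0 h samples, each clock gene call that is lost without them is given with its value.

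With the breeds combined, 8 animals per hour, more of the clock genes passed the test at 8 h than at 2 h, and most of those that did were lower than at 0 h. At 2 h, 3 of 10 passed the FDR limit of 0.05 (adjusted p, edgeR likelihood-ratio test), all lower than at 0 h, against 22% of all rows tested (10.8% higher and 11.2% lower). At 8 h, 6 of 10 passed, 1 higher and 5 lower, against 12.8% of all rows (6.55% higher and 6.25% lower). Between 2 h and 8 h, 4 passed, 2 higher and 2 lower, against 23.8% of all rows (12.2% higher and 11.6% lower). With a change of at least 2-fold as well, 1, 2 and 2 genes passed in these comparisons, against 2.84%, 1.42% and 2.79% of all rows. A fit with the animal as a replicate block, which compares hours within an animal, called more of everything, with 4, 8 and 6 clock genes against 47.5%, 40.7% and 48.4% of all rows. The median size of the log2 fold change over the 10 genes was 0.10 at 2 h, 0.34 at 8 h and 0.26 between 2 h and 8 h, and over all rows it was 0.15, 0.14 and 0.17. All 8 animals moved the same way from 0 h in 3 genes at 2 h and in 7 at 8 h, against 36.1% and 27.8% of all rows. These comparisons share their samples and are not independent of each other. The 10 genes were chosen with earlier results of these data known. Their counts beside shares of all rows, here and below, are thus descriptions and not tests of the set.

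**Figure D1:**
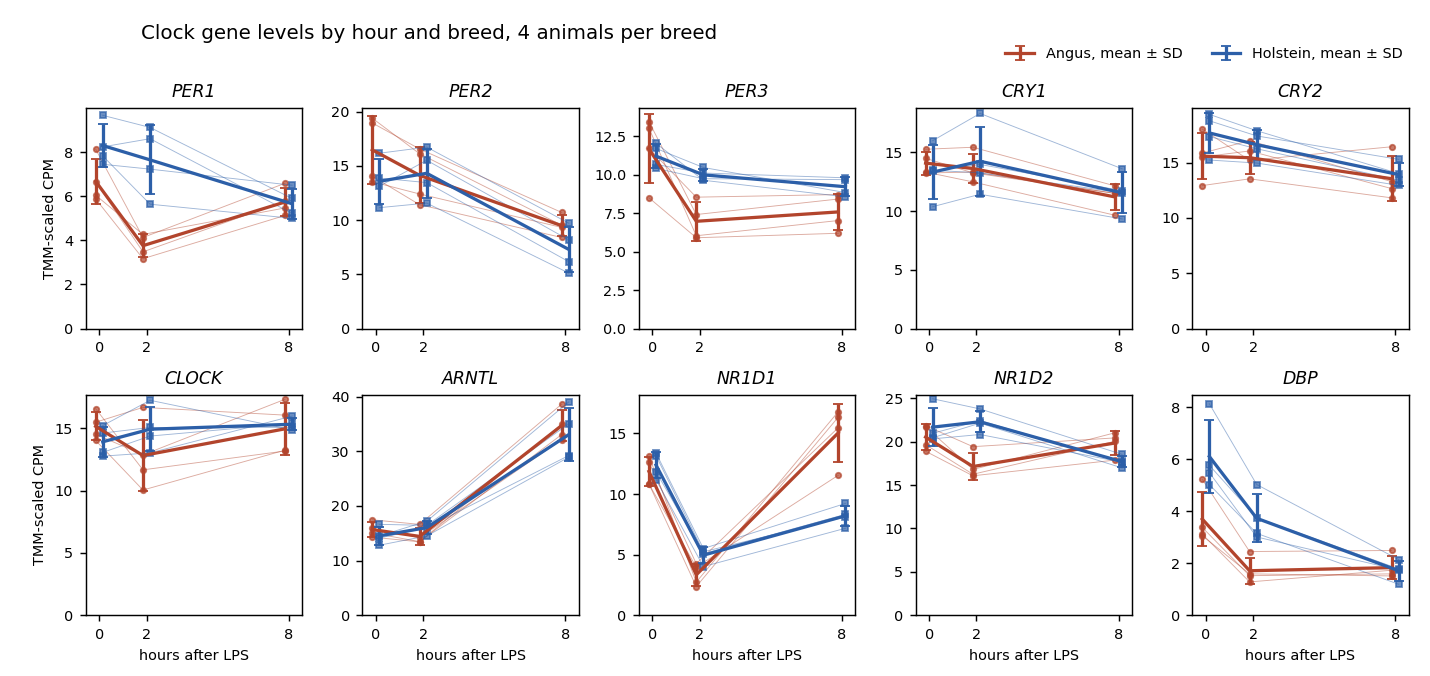
TMM-scaled CPM of each clock gene (y axis, from 0) against hours after LPS (x axis). Thin lines and points are the 4 animals of each breed, and thick lines with bars are the mean ± SD. ARNTL was at 28.93 CPM or higher in every 8 h sample and at 17.46 or lower in all others, and NR1D1 was lowest at 2 h in every animal.

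The activators of the loop behaved differently from each other. ARNTL (chromosome 15, 39841299 to 39948727) was the clock gene that rose. Its level at 0 h was 15.04, 15.88, 14.28 and 17.46 CPM in the Angus animals and 14.52, 12.81, 14.13 and 16.63 in the Holstein animals. At 2 h it was 13.46, 14.18, 13.43 and 16.62 CPM in Angus and 17.19, 14.5, 16 and 16.44 in Holstein, which overlapped the levels at 0 h. At 8 h it was 33.07, 32.15, 35.01 and 38.64 CPM in Angus and 39.05, 28.93, 29.23 and 35.03 in Holstein. Every 8 h sample thus lay above every sample of the earlier hours. The log2 fold change was 0.01 ± 0.09 (SE) at 2 h (FDR = 0.979) and 1.16 ± 0.09 at 8 h (FDR = 1.87e-34), a 2.24-fold rise. CLOCK (chromosome 6, 72574278 to 72657954), its partner, was the steadiest of the 10 genes by group mean, from 12.81 to 15.32 CPM over the 6 groups. Its log2 fold change was -0.07 at 2 h (95% interval -0.3 to 0.15, FDR = 0.769) and 0.05 at 8 h (-0.11 to 0.22, FDR = 0.768), so that a 2-fold change in either direction lay outside both intervals.

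All period genes were lower at 8 h, with differing values at 2 h. PER2 (chromosome 3, 118191441 to 118227977) fell late. In Angus it was at 19.4, 13.54, 14.05 and 18.96 CPM at 0 h, 16.12, 12.41, 11.42 and 16.56 at 2 h and 9.54, 9.33, 8.4 and 10.71 at 8 h. In Holstein it was at 13.88, 13.13, 16.17 and 11.15 CPM at 0 h, 13.46, 15.52, 16.73 and 11.57 at 2 h and 6.17, 8.18, 9.72 and 5.12 at 8 h. The highest 8 h sample, at 10.71 CPM, was below the lowest 0 h sample, at 11.15. The log2 fold change was -0.09 ± 0.13 at 2 h (FDR = 0.758) and -0.85 ± 0.16 at 8 h (FDR = 4.29e-06), a level of 55.6% of that at 0 h.

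PER3 (chromosome 16, 46386400 to 46450495) had a median of 11.72 CPM at 0 h (range 8.51 to 13.47), 9.1 at 2 h (5.91 to 10.48) and 8.64 at 8 h (6.2 to 9.81). It was lower than at 0 h in all 8 animals at both hours, although the ranges overlapped, and its log2 fold change was -0.44 ± 0.14 at 2 h (FDR = 0.015) and -0.45 ± 0.12 at 8 h (FDR = 0.00277). Without the 4 samples counted differently, the fall at 2 h kept its size (-0.44) but no longer passed (FDR = 0.0819). It also did not pass without Angus animal 1, 3 or 4, with an FDR of 0.0753 at most. PER1 (chromosome 19, 28390011 to 28399748) went from a median of 7.64 CPM (5.88 to 9.67) to 4.96 (3.17 to 9.12) at 2 h and 5.63 (5 to 6.59) at 8 h. At 2 h the 4 lowest values were all Angus and the 4 highest all Holstein. Its log2 fold change was -0.39 ± 0.22 at 2 h, which did not pass (FDR = 0.221) except with the replicate block (FDR = 0.00133) or with breed as a term (FDR = 0.00812), and -0.40 ± 0.12 at 8 h (FDR = 0.0124). The 8 h value did not pass without the 4 samples (FDR = 0.0673) or without Holstein animal 1, 2 or 3 (FDR = 0.0687 at most).

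The cryptochromes, the other repressors of the dimer, were slightly lower at 8 h. CRY1 (chromosome 5, 70604520 to 70701030) had a median of 13.44 CPM at 0 h, 13.3 at 2 h and 11.54 at 8 h. CRY2 (chromosome 15, 76753585 to 76792101) had 16.62, 16.16 and 13.35 CPM. Both genes were lower at 8 h than at 0 h in all 8 animals, with ranges that overlapped (CRY1, 10.38 to 16 CPM at 0 h and 9.34 to 13.61 at 8 h). The log2 fold change at 8 h was -0.27 ± 0.10 for CRY1, which missed the limit (FDR = 0.0546) and passed with DESeq2 (FDR = 0.023), the F test (0.0469), breed as a term (0.0299) and the replicate block (4.58e-06), and -0.28 ± 0.10 for CRY2 (FDR = 0.0492). CRY1 also passed without the 4 samples counted differently (-0.35, FDR = 0.0245) and without Holstein animal 4 (FDR = 0.0406). The CRY2 call was not kept without the 4 samples (FDR = 0.236) or in 7 of the 8 leave-one-animal-out fits, all but that without Angus animal 1 (FDR = 0.163 at most). CRY1 fell between 2 h and 8 h by 0.29 on the log2 scale (FDR = 0.0406), a call that was lost when Angus animal 1, 2, 3 or 4 or Holstein animal 2 or 3 was left out (FDR = 0.0911 at most).

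NR1D1 (chromosome 19, 41040925 to 41048228), the nuclear receptor that represses ARNTL, had the largest change of the 10 genes at 2 h. In Angus it went from 10.84, 10.82, 13.14 and 12.62 CPM at 0 h to 2.36, 3.96, 2.73 and 4.25 at 2 h and to 16.35, 11.55, 16.8 and 15.48 at 8 h. In Holstein it went from 13.38, 13.16, 11.18 and 11.83 CPM to 5.5, 5.23, 4.01 and 5.07 and then to 9.22, 8.11, 7.17 and 8.32. Every 2 h sample was below every sample of the other hours, and at 8 h each Angus animal was above and each Holstein animal below its own 0 h level. The log2 fold change was -1.55 ± 0.16 at 2 h (FDR = 1.39e-19), or 34.1% of the level at 0 h, and 1.49 ± 0.22 from 2 h to 8 h (FDR = 2.59e-09). The combined value at 8 h against 0 h, -0.07 (95% interval -0.42 to 0.28, FDR = 0.873), is taken over animals whose changes had opposite signs. NR1D2 (chromosome 27, 41866520 to 41883542), the related receptor, showed no such fall at 2 h. Its median was 20.72 CPM at 0 h, 20.13 at 2 h and 18.21 at 8 h, and its log2 fold change was -0.10 ± 0.10 at 2 h (FDR = 0.597) and -0.17 ± 0.08 at 8 h, which passed only with the replicate block (FDR = 0.141 without and 0.0117 with it).

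DBP (chromosome 18, 55722335 to 55729578), a transcription factor of the clock output that the CLOCK and ARNTL dimer drives, fell at both hours in all 8 animals. In Angus it was at 3.38, 3.06, 5.23 and 3.12 CPM at 0 h, 1.52, 1.59, 2.45 and 1.28 at 2 h and 1.59, 1.51, 2.49 and 1.73 at 8 h. In Holstein it was at 5.49, 8.14, 5.03 and 5.77 CPM at 0 h, 3.01, 5.03, 3.15 and 3.75 at 2 h and 1.74, 2.14, 1.19 and 1.78 at 8 h. All 8 h samples were below all 0 h samples, and every Holstein animal was lower at 8 h than at 2 h. The log2 fold change was -0.85 ± 0.29 at 2 h (FDR = 0.0187) and -1.47 ± 0.21 at 8 h (FDR = 1.93e-09), or 55.4% and 36.1% of the level at 0 h. The call at 2 h was lost without the 4 samples (-0.70, FDR = 0.156) and without Angus animal 3 or Holstein animal 1 (FDR = 0.0688 at most). With the replicate block it passed by a wide margin (FDR = 8.11e-19). From 2 h to 8 h, DBP (-0.61 ± 0.26, FDR = 0.0762) and CRY2 (-0.22 ± 0.09, FDR = 0.0707) missed the limit and passed with the block (FDR = 0.0395 and 0.00246), CRY2 also with DESeq2 (FDR = 0.0182) and the F test (FDR = 0.0417).

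**Figure D2:**
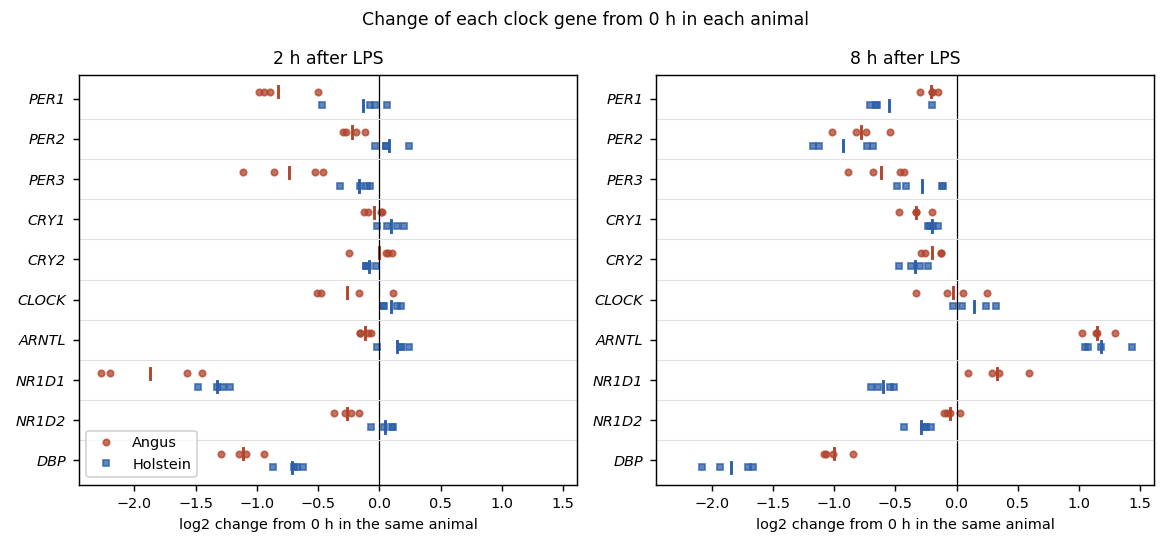
Log2 change of TMM-scaled CPM from 0 h in the same animal (x axis) for each clock gene, at 2 h (left) and 8 h (right). Each point is an animal and each tick the mean of its breed. At 8 h the ARNTL points lie between 1.02 and 1.43 in all animals, and the NR1D1 points lie above 0 in the 4 Angus and below 0 in the 4 Holstein animals.

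Within Angus, 4 of 10 clock genes passed at 2 h against 13.8% of all rows, and 4 at 8 h against 3.9%. Within Holstein, 2 passed at 2 h against 17.2% of all rows, and 7 at 8 h against 14.7%. With at least a 2-fold change as well, 2 genes passed at each hour in Angus (3.1% and 0.868% of all rows) and 1 and 2 in Holstein (3.3% and 2.56%). The replicate block gave 6 genes at each hour in Angus (35.8% and 20.7% of all rows) and 2 and 9 in Holstein (35.8% and 35.2%). At 2 h, NR1D1 fell by 1.83 ± 0.22 on the log2 scale in Angus (FDR = 1.64e-13) and by 1.33 ± 0.14 in Holstein (FDR = 3.31e-18). DBP fell by 1.11 ± 0.28 (FDR = 0.00163) and 0.72 ± 0.23 (FDR = 0.0146), respectively. The DBP call in Holstein was lost without the samples of animals 2 and 4 at 0 h that had been counted differently (FDR = 0.261) and without Holstein animal 1, 3 or 4 (FDR = 0.113 at most).

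PER1 and PER3 passed at 2 h in Angus and not in Holstein. PER1 in Angus went from 5.88, 6.05, 8.14 and 6.66 CPM at 0 h to 3.17, 4.27, 4.13 and 3.48 at 2 h, without overlap, and returned to 5.13, 5.47, 6.59 and 5.78 at 8 h. In Holstein it was at 9.67, 8.24, 7.83 and 7.45 CPM at 0 h, 9.12, 8.61, 5.64 and 7.23 at 2 h and 5.9, 5.22, 5 and 6.5 at 8 h, so that here the lower levels were at 8 h. The log2 fold change of PER1 was -0.83 ± 0.19 at 2 h in Angus (FDR = 0.000423) and -0.12 ± 0.18 in Holstein (FDR = 0.787), and at 8 h it was -0.22 ± 0.18 (FDR = 0.663) and -0.55 ± 0.15 (FDR = 0.00387). The call in Holstein at 8 h was lost without Holstein animal 1 or 2 (FDR = 0.0784 at most). For PER3 the values were -0.74 ± 0.21 in Angus (FDR = 0.00426) and -0.17 ± 0.11 in Holstein (FDR = 0.344) at 2 h, and -0.63 ± 0.19 (FDR = 0.037) and -0.28 ± 0.12 (FDR = 0.0928) at 8 h. The 2 h call in Angus was lost without Angus animal 1 or 4 (FDR = 0.142 at most), and the 8 h call without the 4 samples (FDR = 0.138) or without Angus animal 1, 3 or 4 (FDR = 0.476 at most), or with the F test (FDR = 0.106). PER3 at 8 h in Holstein passed with the replicate block (FDR = 0.0174) and with DESeq2 (FDR = 0.0149).

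ARNTL, PER2 and DBP passed at 8 h in both breeds. ARNTL rose by 1.14 ± 0.12 in Angus (FDR = 2.9e-18) and 1.19 ± 0.13 in Holstein (FDR = 3.28e-16), and PER2 fell by 0.80 ± 0.17 (FDR = 0.00028) and 0.90 ± 0.21 (FDR = 0.000581). DBP fell by 1.01 ± 0.26 in Angus (FDR = 0.00775) and by 1.83 ± 0.23 in Holstein (FDR = 1.73e-12). The Angus value did not pass without Angus animal 1 or 2 (FDR = 0.124 at most) or with the F test (FDR = 0.0737). NR1D1 fell by 0.59 ± 0.13 in Holstein (FDR = 8.39e-05), whereas in Angus the value was 0.34 ± 0.16, which passed only with the replicate block (FDR = 0.304 without and 0.0125 with it). CRY2 (-0.34, FDR = 0.0287) and NR1D2 (-0.29, FDR = 0.0392) also passed in Holstein. Neither did so without the samples counted differently (FDR = 0.304 and 0.414). CRY2 was also lost without Holstein animal 1, 2 or 4, and NR1D2 without any 1 of the 4 Holstein animals. With the replicate block, PER2 (FDR = 0.0218) and NR1D2 (FDR = 0.00289) also passed at 2 h in Angus, and CRY1 passed at 8 h in Angus (FDR = 0.00241) and Holstein (FDR = 0.0139).

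Next, 4 Holstein animals were set against 4 Angus animals hour by hour. Before LPS, 1 of 10 clock genes passed (13.8% of all rows), and the breeds overlapped in all 10 (17.3% of all rows did not overlap). This was DBP, which averaged 6.11 ± 1.39 CPM in Holstein against 3.7 ± 1.03 in Angus (SD, n = 4), with a log2 fold change of 0.72 ± 0.25 (SE, FDR = 0.0295). The call was lost without the 4 samples counted differently (FDR = 0.684), without Angus animal 1, 2 or 4, without Holstein animal 1, 2 or 4 (FDR = 0.136 at most) and with the quasi-likelihood F test (FDR = 0.0689). The fit without the 4 samples kept only Angus animals 1, 2 and 3 and Holstein animals 1 and 3. The other 9 genes had log2 fold changes from -0.28 (PER2) to 0.31 (PER1) at 0 h. The summed level of the 9 fibroblast markers also differed between the groups, with 53235.63 to 68819.36 CPM in Angus and 72467.79 to 124631.11 in Holstein at 0 h, 43256.18 to 88376.44 and 70558.73 to 85658.19 at 2 h, and 37830.73 to 58951.1 and 61645.25 to 78992.32 at 8 h, and its part in the breed differences was not tested. The ranges overlapped at 2 h, and the sums at 0 h and 2 h include COL1A1 as counted differently in the 4 samples.

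At 2 h, 4 of 10 clock genes were higher in Holstein (20.1% of all rows passed, and 10.4% were higher), and the same 4 genes, PER1, PER3, NR1D2 and DBP, had no overlap between the breeds (24% of all rows). A 2-fold change as well left PER1 and DBP (4.53% of all rows), and 0 genes at 0 h (3.9%) and 8 h (3.33%). PER1 averaged 7.65 ± 1.56 CPM in Holstein against 3.76 ± 0.52 in Angus (SD, n = 4), a log2 fold change of 1.01 ± 0.20 (SE, FDR = 4e-05). DBP was at 3.73 ± 0.92 and 1.71 ± 0.51 CPM (1.12 ± 0.27, FDR = 0.000853). PER3 was at 10.48, 9.75, 9.65 and 10.12 CPM in Holstein and 6.04, 5.91, 8.55 and 7.42 in Angus (0.51 ± 0.16, FDR = 0.0144). NR1D2 was at 22.14, 23.78, 20.83 and 22.44 CPM in Holstein and 16.8, 16.07, 19.43 and 16.25 in Angus (0.37 ± 0.11, FDR = 0.0103). In both genes Angus animal 3, whose 2 h sample is among the 4 counted differently, stood nearest to the Holstein animals, and without the 4 samples the values were 0.63 for PER3 (FDR = 0.000477) and 0.44 for NR1D2 (FDR = 0.000521). The PER3 call was lost without Angus animal 1 or 2 or Holstein animal 1 or 4 (FDR = 0.0718 at most), and that of NR1D2 without Angus animal 1 or 2 or Holstein animal 2 (FDR = 0.0632 at most). NR1D1 was higher in Holstein by 0.56 ± 0.24, which did not pass (FDR = 0.0768) except with DESeq2 (FDR = 0.0436) or without Angus animal 4 (FDR = 0.0363).

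At 8 h, 1 of 10 passed and the same gene, NR1D1, had no overlap between the breeds (16.5% and 20.4% of all rows). NR1D1 averaged 8.2 ± 0.84 CPM in Holstein against 15.05 ± 2.39 in Angus (SD, n = 4), a log2 fold change of -0.87 ± 0.16 (SE, FDR = 6.86e-06) that passed in every fit that left out an animal. PER1 and DBP, which had differed at 2 h, were at 5.66 ± 0.68 and 1.71 ± 0.39 CPM in Holstein and at 5.74 ± 0.63 and 1.83 ± 0.45 in Angus. Their log2 fold changes were -0.02 (95% interval -0.33 to 0.3) and -0.09 (-0.59 to 0.4). For ARNTL, CLOCK, CRY1 and CRY2 the difference between the breeds was 0.21 or less in size at every hour (FDR of 0.442 or higher), although CLOCK at 2 h went from 0.21 to 0.37 (FDR = 0.0583) without Angus animal 3.

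**Figure D3:**
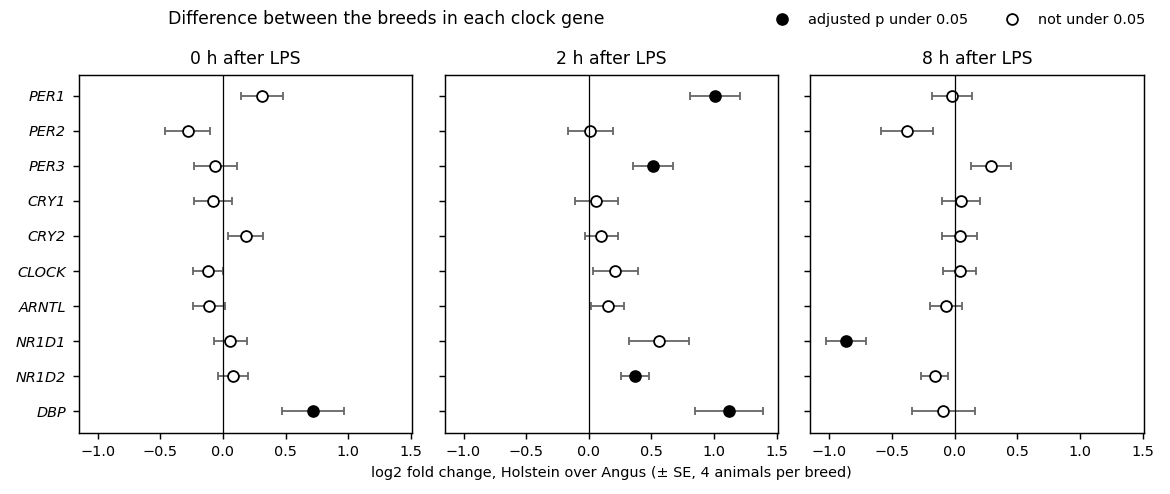
Log2 fold change of Holstein over Angus (x axis, bars ± SE, 4 animals per breed) for each clock gene at 0 h, 2 h and 8 h. Filled points passed the FDR limit of 0.05. DBP is filled at 0 h, PER1, PER3, NR1D2 and DBP at 2 h, all to the right of 0, and NR1D1 alone at 8 h, at -0.87.

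A difference between the breeds in the response itself was tested as an interaction (breed by hour). Between 0 h and 2 h, the likelihood-ratio test, the F test and DESeq2 each called 0 of 10 clock genes. The likelihood-ratio test called 0.437% of all rows. In each test 4 genes had an unadjusted p under 0.05, for which the share of all rows is not given. With the replicate block, 4 genes passed against 4.28% of all rows. These were PER1 (FDR = 0.00231), PER3 (0.0101), NR1D2 (0.0169) and PER2 (0.0476). With the F test and the block together, added after seeing the data, PER1 (0.0362) and NR1D2 (0.0469) remained. The share of all rows for this joint fit is not given. The signed change of PER1 from 0 h to 2 h was -0.89, -0.5, -0.98 and -0.94 in the Angus animals and -0.08, 0.06, -0.47 and -0.04 in the Holstein animals. For PER2 it was -0.27, -0.12, -0.3 and -0.19 in Angus and -0.04, 0.24, 0.05 and 0.05 in Holstein. In PER1, PER2, PER3, ARNTL, NR1D2 and DBP every Angus change lay below every Holstein change. How many of all rows do so was not counted.

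Between 0 h and 8 h, 1 of 10 clock genes passed against 0.137% of all rows. NR1D1 changed by 0.59, 0.09, 0.35 and 0.29 in the Angus animals and by -0.54, -0.7, -0.64 and -0.51 in the Holstein animals, and the interaction was -0.94 ± 0.19 on the log2 scale (FDR = 0.00276). It was 9.56e-10 with the replicate block and 0.000801 with DESeq2, but 0.227 with the F test, 0.0168 with the F test and the block, and 0.179 without the 4 samples counted differently, where the value itself was -0.95. It also did not pass without Angus animal 1 or Holstein animal 4 (FDR = 0.0843 at most), and its value was -1.0 to -0.85 over the 8 fits that left out an animal. The changes to 8 h did not overlap between the breeds in NR1D1, NR1D2 and DBP, which was not counted over all rows. DBP fell further in every Holstein animal (-1.66, -1.93, -2.08 and -1.7) than in every Angus animal (-1.08, -1.01, -1.07 and -0.85). Its interaction of -0.82 ± 0.35 passed with the block (FDR = 0.000467) and not without it (FDR = 1), so that the block gave 2 genes against 2.59% of all rows.

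The change from 2 h to 8 h pointed in opposite directions in the breeds for PER1, PER3 and NR1D2. These were higher at 8 h in all 4 Angus animals and lower in all 4 Holstein animals, a pattern not counted over all rows. The interaction between these hours was tested after this had been seen. PER1, NR1D1 and NR1D2 passed, 3 of 10 against 0.572% of all rows. PER1 changed by 0.69, 0.36, 0.67 and 0.73 in Angus and by -0.63, -0.72, -0.18 and -0.15 in Holstein (interaction -1.04 ± 0.24, FDR = 0.00743). NR1D2 changed by 0.32, 0.15, 0.07 and 0.3 in Angus and by -0.38, -0.36, -0.24 and -0.35 in Holstein (-0.54 ± 0.14, FDR = 0.0183). NR1D1 was higher at 8 h in all animals, by 2.79, 1.54, 2.62 and 1.86 in Angus and by 0.74, 0.63, 0.84 and 0.72 in Holstein (-1.44 ± 0.27, FDR = 0.000105). With the F test only NR1D1 passed (FDR = 0.0282, against 0.0698 for PER1 and 0.052 for NR1D2). The PER1 call was lost without Angus animal 4 or Holstein animal 1 or 2, and that of NR1D2 without Angus animal 1 or 4 or Holstein animal 1, 2 or 4. With the replicate block, PER2 (FDR = 0.0381) and DBP (4.53e-07) passed as well, 5 genes in all against 6.31% of all rows. DBP missed the limit in the main test (-1.22 ± 0.37, FDR = 0.111). It passed without Angus animal 3 (FDR = 0.0214), and also when only the 2 h sample of this animal, counted differently, was left out (-1.47, FDR = 0.00708). PER3 (-0.23 ± 0.21) did not pass (FDR = 1, and 0.354 with the block).

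Some rows share sequence with other rows, and the counting did not use strand. CLOCK lies wholly within EXOC1, a gene on the opposite strand (83677 shared bases), and NR1D1 shares 1101 bases with THRA, a thyroid hormone receptor gene, at their 3' ends. Reads from shared bases cannot be assigned to a strand. THRA changed by -0.33 at 2 h (FDR = 0.00249) and -0.59 at 8 h (FDR = 3.91e-06). At 8 h its value in Angus, where NR1D1 was higher in all 4 animals, was -0.45 (FDR = 0.0455), which did not pass without the 4 samples counted differently (-0.46, FDR = 0.0899) or with the F test (FDR = 0.088), and at 2 h its change was smaller than that of NR1D1. EXOC1 did not pass at either hour (0.00 and 0.14) except at 8 h with the replicate block (FDR = 0.013), and CLOCK did not pass at either. Between the breeds at 2 h, EXOC1 was higher in Holstein by 0.32 (FDR = 0.0712), which passed with DESeq2 (FDR = 0.0422). Without Angus animal 3 at 2 h the EXOC1 value was 0.45 (FDR = 0.000304), in the fit where that of CLOCK was 0.37. The part of EXOC1 reads in the CLOCK row was not tested. The interval without a symbol that begins where ARNTL ends, on its 3' side, rose by 1.12 at 8 h (FDR = 4.76e-20), and that of PER2 fell by 0.77 (FDR = 5.86e-06), close to the values of the genes. The interval on the 3' side of DBP did not pass at 2 h (-0.26, FDR = 0.0948) or 8 h (-0.12, FDR = 0.455), although at 2 h it passed with the replicate block (FDR = 0.0176) and with DESeq2 (FDR = 0.0329).

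**Figure D4:**
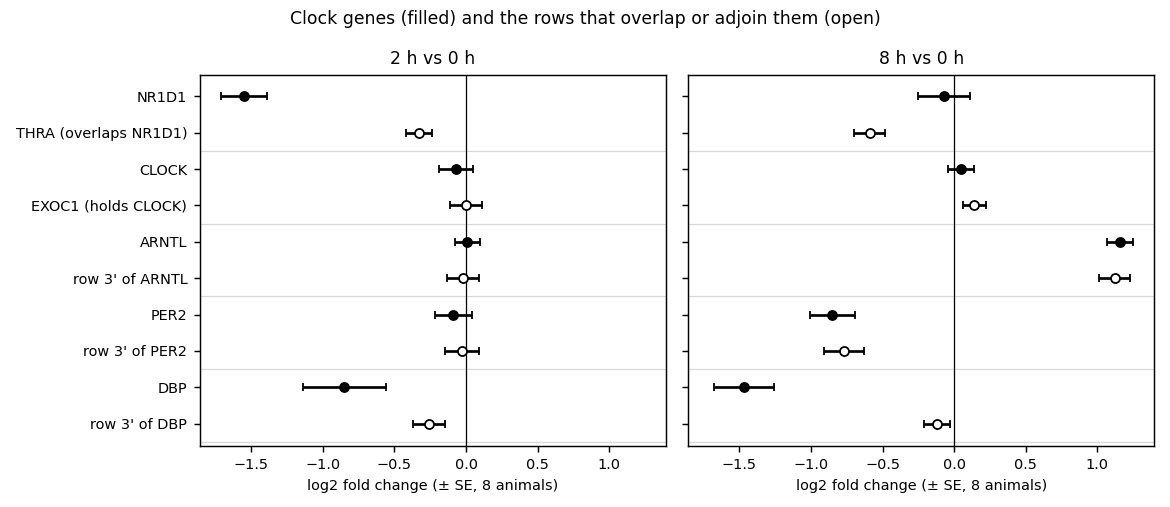
Log2 fold change from 0 h with the breeds combined (x axis, bars ± SE, 8 animals per hour) of 5 clock genes (filled) and of the row that overlaps or adjoins each (open), at 2 h and 8 h. The rows next to ARNTL (1.12) and PER2 (-0.77) lie close to these genes at 8 h, and THRA (-0.59) lies apart from NR1D1 (-0.07).

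Other genes of the pathway were taken from 4 lists, whose counts stand beside 22% of all rows passing at 2 h (10.8% higher, 11.2% lower) and 12.8% at 8 h (6.55% higher, 6.25% lower). Of 12 other genes of the loop and its output, mostly transcription factors, 6 were tested. Of these, 1 rose and 2 fell at 2 h and 1 rose at 8 h. NFIL3, which opposes DBP at its binding sites, fell by 1.26 ± 0.12 at 2 h (FDR = 3.35e-23), from 46.5 ± 5.46 to 19.52 ± 3.86 CPM (SD, n = 8). BHLHE40, a repressor induced by the CLOCK and ARNTL dimer, rose by 1.59 ± 0.22 (FDR = 4.92e-11), and TIMELESS fell by 0.34 (FDR = 0.00192). NPAS2, which can take the place of CLOCK in the dimer, rose by 0.99 ± 0.26 at 8 h (FDR = 0.00317), from 4.19 ± 1.39 to 8.35 ± 2.9 CPM (SD, n = 8). The median log2 fold change of the list was -0.26 at 2 h and 0.12 at 8 h, against -0.004 and -0.007 over all rows.

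Of 15 genes that act on PER and CRY proteins, mostly kinases and ubiquitin ligases, 12 were tested. Of these, 3 rose and 4 fell at 2 h and 1 fell at 8 h (medians 0.14 and -0.06). CSNK1E, a casein kinase that marks PER proteins for destruction, rose by 0.46 at 2 h (FDR = 1.74e-06). PRKAA1 (-0.39) and CSNK2A1 (-0.23) were lower at 2 h. Of 15 genes of the input pathways to the PER genes, all were tested, of which 4 rose and 2 fell at 2 h and 2 rose at 8 h (medians 0.02 and -0.03). SIK1, a kinase that restrains CREB coactivators, rose by 0.94 at 2 h (FDR = 2.85e-09) and 0.79 at 8 h (FDR = 1.73e-07). CREB1 (0.46) and its coactivator CRTC3 (0.40) rose at 2 h, and SIK3 (0.39) at 8 h. TSC22D3, a glucocorticoid-induced gene, fell by 0.77 at 2 h (FDR = 1.73e-08), from 23.7 ± 2.99 to 13.98 ± 2.55 CPM (SD, n = 8). Of 11 output genes, 8 were tested and 1 rose at each hour, CCRN4L (nocturnin) at 2 h (0.77, FDR = 1.09e-05) and NAMPT, the rate-limiting enzyme of NAD salvage, at 8 h (0.41, FDR = 0.000183). The medians were 0.10 and 0.17. Among the genes counted in these lists, CSNK2A2 (0.18, FDR = 0.0388) and SIK2 (-0.31, FDR = 0.00782) at 2 h, named after their values were seen, did not pass without the 4 samples counted differently (FDR = 0.287 and 0.117). With the replicate block, 5 of 6, 12 of 12, 9 of 15 and 4 of 8 genes of the lists passed at 2 h (47.5% of all rows) and 4, 5, 7 and 5 at 8 h (40.7% of all rows).

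Over the 24 samples, each clock gene was set against the other rows with a symbol that reached 1 CPM in at least 50% of samples and did not overlap it (12957, or 12956 for CLOCK and NR1D1) by Pearson's r of log2(CPM + 1), as a description across samples that share animals and hours. Closest to ARNTL were DDX10 (0.916), ODC1 (0.909) and PDE3A (0.909). NR1D1 was closest to LOC100847448 (0.947) and PIK3R1 (0.944), whose rows overlap on chromosome 20, and to RPGRIP1L (0.929). DBP was closest to LDB1 (0.929) and ARMCX6 (0.926), PER1 to ZBTB5 (0.905) and KIAA1539 (0.894), PER2 to SEPT11 (0.893) and OSBPL10 (0.881), and CRY2 to SLC4A2 (0.884). The values were lower for PER3 (SH3D19, 0.842), NR1D2 (BBC3, 0.842), CRY1 (AIF1L, 0.833) and CLOCK (BRWD3, 0.752). No clock gene was among the 3 nearest rows of another.

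The order of the 6 group means was read against the spread between animals. Gaps between neighbouring groups were not counted over all rows, so no share stands beside those of the clock genes. For NR1D1 the order was Angus 2 h, Holstein 2 h, Holstein 8 h, Angus 0 h, Holstein 0 h and Angus 8 h, from 3.33 to 15.05 CPM (4.52-fold), and 2 of the 5 neighbouring pairs did not overlap, those on either side of Holstein 8 h. For DBP the means ran from 1.71 CPM (Angus 2 h and Holstein 8 h) to 6.11 (Holstein 0 h, 3.57-fold), with a gap between Angus 8 h and Angus 0 h. ARNTL (2.41-fold), PER2 (2.26-fold) and PER1 (2.2-fold) each had 1 such gap, and in PER1 it set Angus 2 h below all other groups. In PER3, NR1D2, CRY2, CRY1 and CLOCK (1.68-fold to 1.2-fold) all neighbouring groups overlapped.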

How the data were processed

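RNA-Seq reads (TruSeq, polyadenylated RNA) had been base-called with CASAVA 1.7 per the labels and aligned by the authors to build UMD v3.1 with NextGENe 2.3.4. The deposited read counts are raw whole numbers per row, and a row is a whole gene span, introns included, so levels of different genes are not compared. The deposited coverage signal (mean coverage per row) served only to check the counting. Summed counts were 1.5 to 1.71 times the matched reads, so a read could enter several rows.

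Counts were tested in R 4.3.3 (edgeR 4.0.16) as in the study's methods: rows with 1 CPM or more in at least 50% of the samples compared, a likelihood-ratio test and Benjamini-Hochberg adjustment over all rows (FDR), with TMM scaling added. Each comparison used its own samples, with no block unless stated. Standard errors came from the information matrix, and intervals are 95% intervals. Alternatives were the quasi-likelihood F test, DESeq2 1.42.0, RLE scaling, no CPM filter, a 2-fold limit, breed as a term, the animal as a replicate block, and fits without single animals or without the 4 samples counted differently. The last of these dropped those of the 4 that were in a comparison, so a lost call can also reflect fewer samples. Between the breeds at 2 h it was the same fit as that without Angus animal 3. The interaction between 2 h and 8 h and the F test with the block were added after seeing the data. The fits were tested on simulated data.

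The labels give each animal's number at every hour. As deviations from the group means, an animal's 0 h and 2 h samples had a mean r across rows of 0.658 (lowest 0.545), so the replicate block pairs hours within an animal. The mean r with other animals, -0.218, follows largely from the centring, since deviations from a group mean cancel out. Replicates of a group all differed by more than sampling noise. Counting floors (3 counts) cover counting error only.

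The clock genes and pathway lists were chosen with earlier results of these data known. In each list, up to 4 genes per hour with the lowest FDR among those past the limit are named, and for likeness the 3 nearest rows were found. Symbols without a row here (TEF, CIART, GSK3B, PPARGC1B) were not analysed, and the values of 1 listed gene are not reported here. No genome of this build was at hand, and no sequences are shown.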

Additional observations from a re-analysis of the deposited data

Results flagged for a closer look

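Several results between the breeds stood out because the response of a gene differed between them. For NR1D1, the interaction of breed and hour between 0 h and 8 h was -0.94 on the log2 scale, and between 2 h and 8 h it was -1.44. For PER1 and NR1D2 the interaction between 2 h and 8 h was -1.04 and -0.54. In 4 cases every animal of one breed moved in the opposite direction to every animal of the other. How often this occurred over all rows was not counted. The mean log2 change in Holstein minus that in Angus was -0.93 for NR1D1 from 0 h to 8 h, and from 2 h to 8 h it was -1.03 for PER1, -0.54 for NR1D2 and -0.25 for PER3. The interactions of NR1D1, PER1 and NR1D2 passed the FDR limit in the likelihood-ratio test, whereas that of PER3 did not (FDR = 1).

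Single samples far from the rest of their group were looked for in the 60 groups of 4 values (10 genes in 6 groups). Of these, 2 were found, which is no more than chance gives (about 1 in 20). NR1D2 in Holstein animal 2 at 0 h was at 24.95 CPM, with the next value at 20.97. DBP in Angus animal 3 at 0 h was at 5.23 CPM, with the next value at 3.38. The 0 h sample of Holstein animal 2 is among the 4 in which COL1A1 reads were counted differently, and that of Angus animal 3 is not.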

How the results depend on the processing

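No direction of a called gene turned in any alternative. The counts in this section stand beside those of the main test, and shares of all rows are given only where stated above. RLE scaling and DESeq2 kept all 13 counts of clock genes past the FDR limit within 1.5 times. Leaving out 1 animal at a time gave 1 to 3 genes at 2 h and 4 to 6 at 8 h with the breeds combined, 3 to 4 from 2 h to 8 h, 3 to 4 and 2 to 3 in Angus, 1 to 2 and 4 to 6 in Holstein, 0 to 2, 2 to 5 and 1 between the breeds at 0 h, 2 h and 8 h, and 0, 0 to 1 and 1 to 4 in the interactions at 2 h, at 8 h and between 2 h and 8 h. With the breeds combined at 2 h, the count of 1 came without Angus animal 3. Without the 4 samples counted differently, the counts were 1 at 2 h (breeds combined and Holstein), 0 between the breeds at 0 h and 0 in the interaction at 8 h. A 2-fold limit left 1, 2 and 2 genes at 2 h, 8 h and between them, 2 and 2 in Angus, 1 and 2 in Holstein, 0, 2 and 0 between the breeds, and 0 in the interaction at 8 h. The F test gave 2 in Angus at 8 h, 0 between the breeds at 0 h, 0 in the interaction at 8 h and 1 in that between 2 h and 8 h. Without the CPM filter the count between the breeds at 0 h was 0, and 8 calls of single genes were lost, those of CRY2 at 8 h (breeds combined and Holstein), CRY1 from 2 h to 8 h, PER3 in Angus and NR1D2 in Holstein at 8 h, DBP between the breeds at 0 h, NR1D2 between them at 2 h, and NR1D2 in the interaction between 2 h and 8 h.

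The animal as a replicate block gave 4, 2 and 5 genes in the interactions at 2 h, at 8 h and between 2 h and 8 h. Joined with the F test, a fit added after seeing the data, it gave 2 and 2 at 2 h and 8 h. The share of all rows for this joint fit is not given. Between the breeds, where equal numbers name unrelated animals (mean r of -0.112 at 0 h), the block gave 0 genes at 0 h, and the F test with the block gave 0 at each hour. In the hour comparisons the block changed no call of a clock gene other than those given beside the results. Scaling by library total moved 2 of the 60 group means, PER3 in Holstein at 2 h and NR1D2 in Angus at 8 h, by more than their SD. The causes were not tested. The lowest clock gene, DBP, had 73 to 556 counts per sample, so depth limited it most.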
